A study of Homo sapiens with 30 samples.

Results

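The genes described here encode the nucleolar machinery that makes ribosomal RNA (rRNA) and ribosomes, together with the subunits and initiation factors of RNA polymerases I and III. Of 50 listed genes, 42 had a probe set that the platform annotation assigns to 1 gene symbol only, current or former, and 41 of these passed the filter on mean signal over all 30 arrays, among 8101 genes that passed it in all. By role, 15 of 17 polymerase genes, 15 of 18 rRNA processing genes and 11 of 15 ribosome assembly genes were tested. NOP56, DKC1, BOP1 and PPAN had only probe sets annotated with several symbols, POLR1A, NOP58, GNL3 and EBNA1BP2 had no probe set of 1 symbol, and the probe set of POLR3D was too dim to test. Where a gene had several probe sets, the one with the highest mean was used, taking the _s_at and _x_at types only for lack of others, and 10 of the genes had more than 1 tested probe set.

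Messenger RNA was measured in GM15510 and GM15036, a pair of established lymphoblastoid cell lines, made from human B cells by infection with Epstein-Barr virus and kept as suspension cultures in MEM with serum. Cells of each line received 1, 2.5, 5, 7.5 or 10 cGy from a cesium-137 source, and each of the 10 groups has 3 arrays. Doses are taken in cGy, as labelled, although the design text has the same numbers in Gy. Unirradiated cells were not analysed here, so 1 cGy served as the baseline of its line, and what every dose does alike stays out of view. The 4 comparisons within a line share these 3 arrays. The sources used here do not give how long after irradiation the RNA was taken. No label tells separate cultures from repeat arrays, so p-values measure the spread between arrays, which may be technical.

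RNA polymerase I transcribes the long rRNA precursor in the nucleolus, after upstream binding factor (UBTF), a selectivity factor (TAF1A, TAF1B, TAF1C and TAF1D with TATA-binding protein) and the initiation factor RRN3 have assembled on its promoter. RNA polymerase III makes the smallest rRNA and transfer RNAs. Small nucleolar ribonucleoproteins and the processome then modify and cut the precursor, and assembly factors build the subunits of the ribosome, work that is heavy in growing lymphoid cells. The arrays measured the mRNA of these proteins and not rRNA itself, and a lower signal in such bulk RNA cannot tell fewer expressing cells from less mRNA in each cell.

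Signals below are array intensities after each array was scaled to a common trimmed mean, and differences are on the scale of log2(scaled signal + 4), which understates the change of dim probe sets. Before scaling, the brightness of the arrays, the trimmed mean of their signal, ran from 14.1 to 112. It averaged 89.1 ± 23.6 (SD, n = 3) at 10 cGy, 18.7 ± 4.48 at 2.5 cGy and 69.4 ± 10.5 at 1 cGy in GM15510. In GM15036 brightness averaged 22.1 ± 10.4 at 10 cGy and 69.6 ± 10.2 at 1 cGy. At 5 and 7.5 cGy it averaged 39.0 ± 26.6 and 67.7 ± 21.7 in GM15510. At 2.5, 5 and 7.5 cGy in GM15036, brightness averaged 49.8 ± 6.12, 51.3 ± 3.47 and 32.4 ± 4.73. The log2 ratio of 3-prime to 5-prime ACTB signal, a sign of RNA integrity, averaged 5.16 at 10 cGy and 3.75 at 1 cGy in GM15510, and 5.20 at 10 cGy and 4.48 at 1 cGy in GM15036. At 2.5, 5 and 7.5 cGy it averaged 4.29, 4.81 (SD 1.20) and 3.78 in GM15510, and 5.51, 5.03 and 5.40 in GM15036. Of 8 B cell markers, 7 had a probe set and all of these passed the filter, with a summed signal of 839 to 1824 per array. Of the markers of other cells with a probe set, those that passed were CD3E of 6 for T and NK cells (summed signal 21.2 to 72.9), 0 of 3 for monocytes (4.44 to 28.3), HBB of 2 for erythroid cells (3.92 to 26.6) and COL1A1 and COL1A2 of 4 for fibroblasts (30.4 to 88.1). Their part in the results was not tested.

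The listed genes of rRNA processing had dose profiles that differed between the lines more often than those of the polymerases or of ribosome assembly, as counts of calls. An F test of the line by dose interaction (limma, 4 numerator degrees of freedom, adjusted p under 0.05) called 8 of 15 processing genes, 4 of 15 polymerase genes and 2 of 11 assembly genes, or 14 of 41 (34.1%), where 20.1% of all tested genes were called. These shares were not tested against each other. The lists were chosen with earlier results of these data known, and of 60 further ribosome biogenesis factors tested, 13 (21.7%) were called. The processing genes were DDX21, NCL, NOLC1, DDX10, GAR1, UTP18, WDR43 and NOP14, the polymerase genes were TAF1D, TAF1C, POLR1D and POLR1B, and the assembly genes were GTPBP4 and RRP1B. With array brightness as a covariate, 9 of the 41 genes were called. The share of all tested genes with that covariate was not counted, so the 20.1% is no background for the 9.

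At single doses, 0 to 8 of the 41 genes were called against 1 cGy, and the 2 directions were mixed. At 2.5, 5, 7.5 and 10 cGy the share was 19.5%, 7.32%, 2.44% and 14.6% in GM15510. All tested genes there had 9.18%, 3.93%, 1.79% and 6.16%. In GM15036 the share was 4.88%, 0%, 4.88% and 14.6%, beside 0.58%, 0.123%, 3.18% and 11.7% of all tested genes. The difference of these shares was not tested. In GM15510, 4 of 41 were higher and 4 lower at 2.5 cGy, against 3.51% and 5.68% of all tested genes. At 5 cGy, 1 was higher and 2 were lower (background 1.79% and 2.14%), at 7.5 cGy 1 was higher and 0 were lower (1.01% and 0.778%), and at 10 cGy 4 were higher and 2 lower (3.15% and 3.01%). In GM15036, 1 was higher and 1 lower at 2.5 cGy (0.123% and 0.457%). At 5 cGy limma called 0 in either direction (0.0617% each way), and an unadjusted p under 0.05 held for 1 higher and 7 lower genes, beside 307 higher and 336 lower of all 8101. At 7.5 cGy 1 was higher and 1 lower (1.05% and 2.14%), and at 10 cGy 2 were higher and 4 lower (4.05% and 7.67%). The median difference of the 41 genes was −0.06, −0.06, 0.01 and −0.08 at the 4 doses in GM15510, and 0.04, −0.04, −0.03 and −0.07 in GM15036, beside −0.02 to 0.03 for all tested genes.

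**Figure D1:**
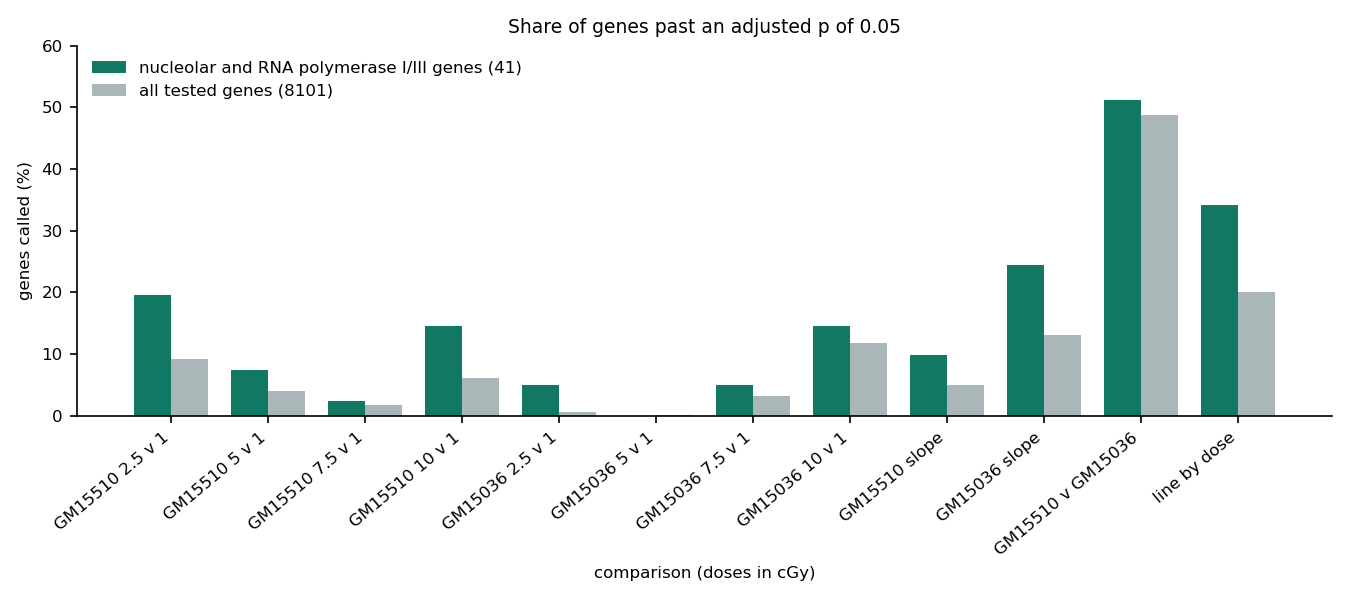
Share of genes past an adjusted p of 0.05 (limma, vertical axis, percent) in each of the 12 comparisons, for the 41 nucleolar and RNA polymerase I/III genes (green) and for all 8101 tested genes (grey). The share of the 41 genes was 34.1% for the line by dose interaction, beside 20.1% of all tested genes, and close to the grey bar for the difference of the lines.

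The balance of directions moved with the scaling. With unscaled arrays centred on their median log2 value, 1 was higher and 13 were lower at 2.5 cGy and 1 higher and 5 lower at 5 cGy in GM15510. In GM15036 the same setting gave 0 higher and 11 lower at 10 cGy, 0 higher and 2 lower at 7.5 cGy, and 0 higher and 1 lower at 2.5 cGy. The array as a whole shifted the same way under this setting. Of 13329 probe sets, 418 were higher and 2031 lower at 2.5 cGy in GM15510, and 190 higher and 550 lower at 5 cGy. In GM15036, 377 were higher and 2018 lower at 10 cGy, 79 higher and 386 lower at 7.5 cGy, and 6 higher and 84 lower at 2.5 cGy. In GM15510 at 2.5 cGy, the dimmest group, brightness as a covariate left 0 calls, and without the 5 dimmest arrays 5 were left. The share of all tested genes was not counted in either setting, so these counts have no background.

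**Figure D2:**
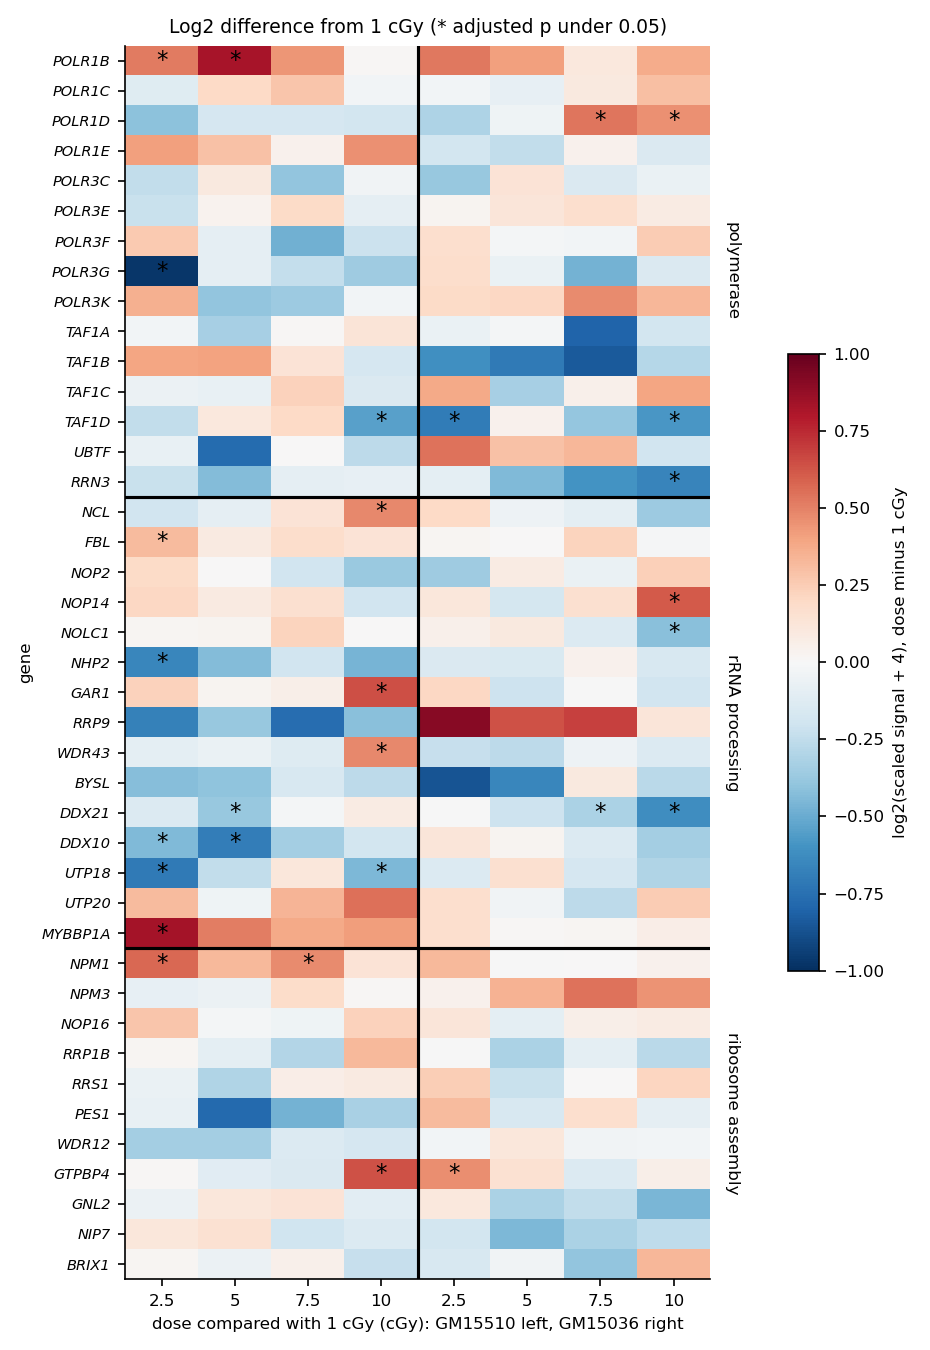
Log2 difference of each dose from 1 cGy for the 41 genes (rows, by role) in GM15510 (left 4 columns) and GM15036 (right 4 columns), on the scale of log2(scaled signal + 4), with red for higher and blue for lower than 1 cGy and a star for an adjusted p under 0.05 (limma). Stars are scattered over both directions, and DDX21 and TAF1D hold 3 each.

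Called slopes on dose were all positive in GM15510 and mostly negative in GM15036, and those of all tested genes leaned the same way. In GM15510, 4 of 41 genes had a called positive slope and 0 a called negative one (background 2.91% and 2.04%), the 4 being NCL, GAR1, WDR43 and GTPBP4. In GM15036, 3 rose with dose (POLR1D, NPM3 and NOP14) and 7 fell (TAF1D, RRN3, NCL, NOLC1, GNL2, DDX21 and DDX10), where 4.88% and 8.25% of all tested genes did. NCL was the 1 gene with a called slope in both lines, positive in GM15510 and negative in GM15036. Arrays centred on their median gave 5 positive and 0 negative slopes in GM15510, and 1 positive and 12 negative slopes in GM15036, where all 13329 probe sets had 721 positive and 138 negative slopes in GM15510 and 447 positive and 1926 negative slopes in GM15036.

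**Figure D3:**
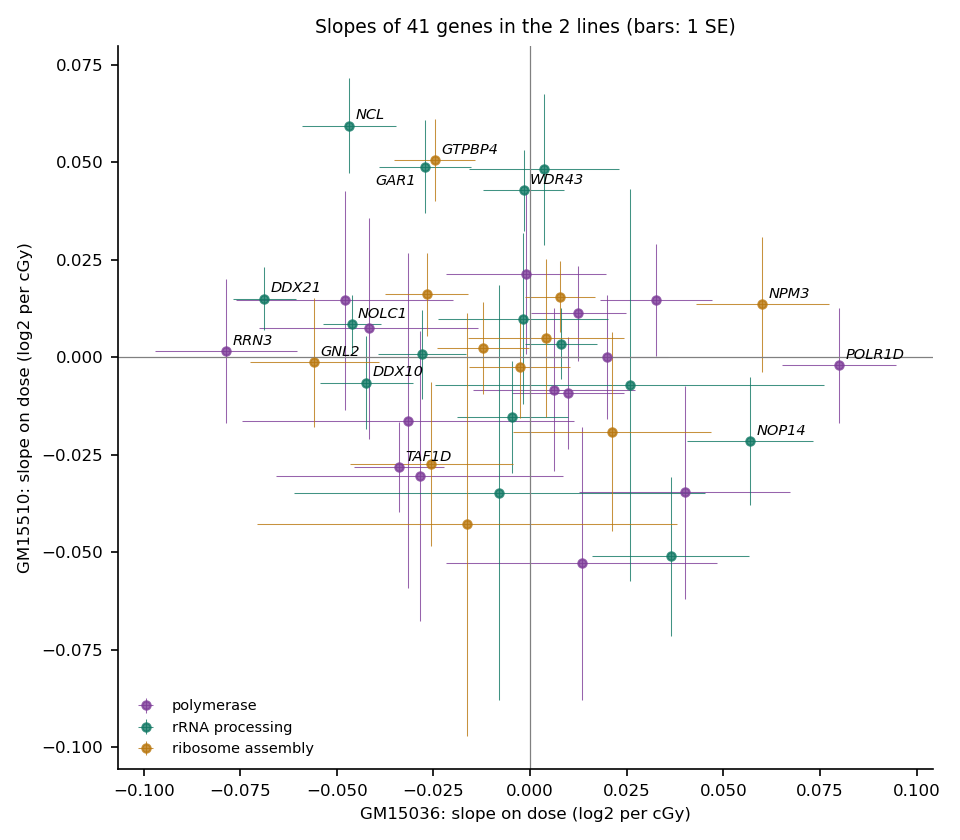
Slope of log2(scaled signal + 4) on dose, in log2 per cGy, in GM15510 (vertical axis) and GM15036 (horizontal axis) for the 41 genes, with bars of 1 SE and names for genes with a called slope in either line. NCL lies at 0.06 in GM15510 and −0.05 in GM15036.

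DDX21, a nucleolar RNA helicase that binds rRNA genes and the snoRNAs of the processome, had the smallest interaction p of the 41 genes. Its probe set 208152_s_at read 1222, 1393 and 1271 at 10 cGy in GM15510, against 1226, 1177 and 1261 at 1 cGy. In GM15036 it read 784, 734 and 763 at 10 cGy, against 1094, 1211 and 1218 at 1 cGy. The GM15036 arrays at 10 cGy all lay below those at 1 cGy, while the ranges of both doses overlapped in GM15510. At 7.5 cGy the GM15036 arrays read 966, 908 and 950, and at 5 cGy 1009, 950 and 1100. DDX21 fell in GM15036 by 0.62 at 10 cGy (SE 0.083, adjusted p = 4.61e-06) and by 0.32 at 7.5 cGy (adjusted p = 0.0272), with a slope of −0.07 log2 per cGy (adjusted p = 5.51e-07). GM15510 held its lowest DDX21 signal at the middle dose, with 943, 972 and 896 at 5 cGy, a fall of 0.38 (SE 0.083, adjusted p = 0.00518). At 10 cGy the GM15510 difference was 0.08 (adjusted p = 0.745), and the interaction had adjusted p = 4.07e-06. The 10 cGy fall in GM15036 was 0.71 with brightness as a covariate (adjusted p = 0.000554) and 0.62 without the 5 dimmest arrays (adjusted p = 0.00193). The call at 7.5 cGy ended without GM15036 1 cGy replicate b (adjusted p = 0.126) or c (0.113) or 7.5 cGy replicate b (0.119) or c (0.0764), with brightness (0.0571) or the ACTB ratio (0.115) as a covariate, and with no filter (0.0533).

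NCL encodes nucleolin, an abundant nucleolar protein that binds nascent rRNA precursor. Its probe set 200610_s_at read 2349, 2480 and 2626 at 10 cGy in GM15510, against 1949, 1812 and 1580 at 1 cGy. In GM15036 it read 1945, 1658 and 2043 at 10 cGy, against 2343, 2561 and 2349 at 1 cGy. The groups did not overlap in either line, with 10 cGy above 1 cGy in GM15510 and below it in GM15036. The change with dose was not steady. At 2.5 cGy NCL read 1517, 1469 and 1684 in GM15510, which overlapped with 1 cGy. In GM15036 it read 2656, 2903 and 2745 at 2.5 cGy, all above 1 cGy. NCL rose in GM15510 by 0.48 at 10 cGy (SE 0.125, adjusted p = 0.0143), with a slope of 0.06 (adjusted p = 0.00218). The GM15036 difference at 10 cGy was −0.36 (adjusted p = 0.0536) and the slope −0.05 passed (adjusted p = 0.00764). The interaction had adjusted p = 6.23e-05, and 0.0112 with brightness as a covariate. The GM15510 call at 10 cGy ended without 1 cGy replicate 3 (adjusted p = 0.108) or 10 cGy replicate 3 (0.0814), with the ACTB ratio as a covariate (0.41, adjusted p = 0.197) and with the line fitted alone (0.0613). The GM15036 slope ended without 10 cGy replicate b (0.0539), the dimmest of all arrays, and without the 5 dimmest (0.2).

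NOLC1, a chaperone of small nucleolar ribonucleoproteins that shuttles to the nucleolus, was lower at 10 cGy in GM15036 with the probe set used here. Its probe set 211951_at read 1361, 1395 and 1401 at 10 cGy in GM15510, against 1317, 1371 and 1466 at 1 cGy. In GM15036 it read 1119, 1053 and 1194 at 10 cGy, against 1521, 1485 and 1477 at 1 cGy. Only the GM15036 groups were apart, and NOLC1 fell there by 0.41 (SE 0.078, adjusted p = 0.000391), or by 0.71 with median centring. The slope in GM15036 was −0.05 (adjusted p = 5.19e-05) and the interaction had adjusted p = 0.00097, or 0.114 with brightness as a covariate. The other probe sets disagreed at 10 cGy in GM15036, where 205895_s_at had −0.29 (adjusted p = 0.0859) and 211949_s_at had 0.22 (adjusted p = 0.575), and at 2.5 cGy in GM15510, where they had −0.43 (adjusted p = 0.0117) and 0.82 (adjusted p = 0.00881).

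GAR1 and WDR43 were highest at 10 cGy in GM15510. GAR1, a core protein of the small nucleolar particles that turn uridines of rRNA into pseudouridines, read 333, 285 and 289 (219110_at) at 10 cGy in GM15510, against 221, 163 and 196 at 1 cGy. In GM15036 GAR1 read 274, 249 and 247 at 10 cGy, against 295, 326 and 265 at 1 cGy. WDR43, a protein of the small subunit processome, read 196, 219 and 195 (214662_at) at 10 cGy in GM15510, against 158, 139 and 138 at 1 cGy. The GM15510 arrays at 10 cGy lay above all other GM15510 arrays for both genes. GAR1 rose by 0.64 (SE 0.123, adjusted p = 0.000805) and WDR43 by 0.48 (SE 0.107, adjusted p = 0.0043) at 10 cGy in GM15510. Beside them in GM15036 stood −0.19 for GAR1 (adjusted p = 0.36) and −0.13 for WDR43 (adjusted p = 0.488). The interaction had adjusted p = 0.00167 for GAR1 and 0.00704 for WDR43. With brightness as a covariate the rises were 0.59 (GAR1, adjusted p = 0.00114) and 0.48 (WDR43, adjusted p = 0.00466). The GM15510 slopes were called for both but ended for GAR1 without 1 cGy replicate 2 (adjusted p = 0.0781) or 10 cGy replicate 1 (0.0756), and for WDR43 without 10 cGy replicate 2 (0.0627), and for both with brightness as a covariate (0.394 for GAR1 and 0.0687 for WDR43).

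**Figure D4:**
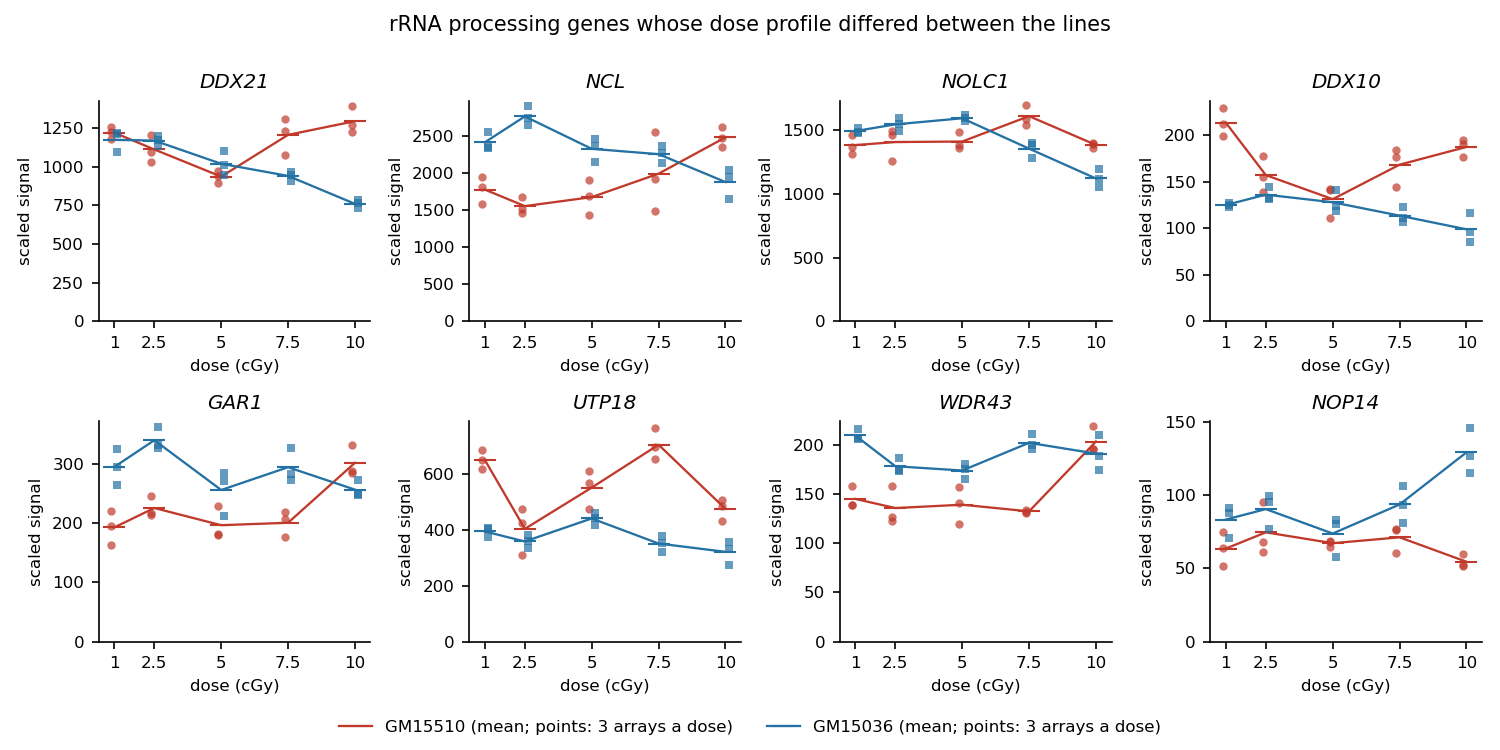
Scaled signal by dose (cGy) of the 8 rRNA processing genes with a called line by dose interaction, in GM15510 (red circles) and GM15036 (blue squares). Points are the 3 arrays of a group and lines join the group means. DDX21, NCL and NOLC1 of GM15036 are lowest at 10 cGy, whereas GAR1 and WDR43 of GM15510 are highest there.

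UTP18 and DDX10, a scaffold protein and a helicase of the small subunit processome, were lower at some doses in GM15510. UTP18 (203721_s_at) read 427, 475 and 313 at 2.5 cGy, 476, 614 and 569 at 5 cGy, 698, 767 and 656 at 7.5 cGy and 508, 434 and 487 at 10 cGy in GM15510, beside 653, 687 and 619 at 1 cGy. The arrays at 2.5, 5 and 10 cGy all lay below those at 1 cGy, and those at 7.5 cGy overlapped with them. UTP18 fell by 0.70 at 2.5 cGy (SE 0.118, adjusted p = 0.000157) and by 0.45 at 10 cGy (adjusted p = 0.0149), and its second probe set 222038_s_at had −1.29 (adjusted p = 0.0175) and −0.09 (adjusted p = 0.964) at these doses. DDX10 (204977_at) read 111, 143 and 141 at 5 cGy in GM15510, against 199, 230 and 212 at 1 cGy. All GM15510 arrays above 1 cGy lay below those at 1 cGy for DDX10, those at 10 cGy reading 191, 176 and 195. DDX10 fell by 0.69 at 5 cGy (SE 0.124, adjusted p = 0.000648) and by 0.44 at 2.5 cGy (adjusted p = 0.0208), and had −0.18 at 10 cGy (adjusted p = 0.539). In GM15036 the largest differences of both genes were those at 10 cGy, −0.30 for UTP18 (adjusted p = 0.0976) and −0.34 for DDX10 (adjusted p = 0.0734). The interaction had adjusted p = 0.00181 for UTP18 and 0.000971 for DDX10, the second being 0.0802 with brightness as a covariate. The DDX10 call at 2.5 cGy ended without GM15510 1 cGy replicate 2 (adjusted p = 0.0976) or 3 (0.0572) or 2.5 cGy replicate 1 (0.0988) or 2 (0.0514), and with quantile normalization (0.091) or brightness (0.576) or the ACTB ratio (0.0595) as a covariate. The UTP18 call at 2.5 cGy ended with brightness as a covariate (0.0852). That of UTP18 at 10 cGy ended without GM15510 1 cGy replicate 1 (0.0517) or 2 (0.0796) or 10 cGy replicate 2 (0.0987) or with the ACTB ratio (0.0973), and the DDX10 slope in GM15036, −0.04 (adjusted p = 0.0147), without 10 cGy replicate b (0.0914) or with brightness (0.494).

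NOP14, a processome protein, was the 1 processing gene higher at 10 cGy in GM15036. Its probe set 214661_s_at read 115, 145 and 127 at 10 cGy in GM15036, against 91.2, 87.7 and 70.6 at 1 cGy, and 52, 51.2 and 60 at 10 cGy in GM15510, against 51.8, 63.8 and 74.6 at 1 cGy. The difference was 0.61 in GM15036 (SE 0.168, adjusted p = 0.0136) and −0.19 in GM15510 (adjusted p = 0.684), with an interaction at adjusted p = 0.00775. It was 0.39 with median centring (adjusted p = 0.112), 0.40 with brightness as a covariate (0.474) and 0.59 without the 5 dimmest arrays (0.131), and the call ended without GM15036 1 cGy replicate c (0.0924) or 10 cGy replicate b (0.0772). Under these 3 alternatives the interaction had adjusted p of 0.0728, 0.267 and 0.0874, and the GM15036 slope, 0.06 (adjusted p = 0.016), had 0.121, 0.553 and 0.113. That slope also ended without 1 cGy replicate c (0.0727) or 10 cGy replicate b (0.0758).

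In GM15510 at 2.5 cGy, 3 further processing genes were called. NHP2, a partner of GAR1 in the pseudouridine particles, read 150, 216 and 115 (209104_s_at) at 2.5 cGy, against 241, 264 and 233 at 1 cGy, a fall of 0.65 (SE 0.149, adjusted p = 0.00425). FBL, the methyltransferase fibrillarin, rose by 0.32 (SE 0.095, adjusted p = 0.0302) with 609, 537 and 594 (211623_s_at) at 2.5 cGy, against 427, 462 and 508 at 1 cGy. MYBBP1A, a nucleolar protein that associates with RNA polymerase I, rose by 0.83 (SE 0.228, adjusted p = 0.0173) with 72.4, 69.4 and 61 (219098_at) at 2.5 cGy, against 36.2, 39.2 and 33.5 at 1 cGy. None of these held with brightness as a covariate (adjusted p = 0.317 for NHP2, 0.712 for FBL and 0.237 for MYBBP1A), and FBL was at 0.00 with median centring. NHP2 was lost without 2.5 cGy replicate 3 (adjusted p = 0.0589), FBL without 1 cGy replicate 1 (0.164) or 2 (0.0793) or 2.5 cGy replicate 1 (0.0954) or 3 (0.0829), and MYBBP1A without 1 cGy replicate 1 (0.0545) or 3 (0.0692) or 2.5 cGy replicate 1 (0.0507). NOP2, RRP9, BYSL and UTP20 were called in no comparison, with lowest adjusted p of 0.0537, 0.434, 0.653 and 0.111.

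The promoters of most processing genes shared a sequence element, a description that was not tested. The palindrome CACGTG, the canonical E-box bound by MYC with MAX and by other factors of their class, reads the same on both strands. It was searched in windows from 250 bases before to 50 bases after the start of each gene in RefSeq, build GRCh38.p14, for 36 of the 41 genes with an entry. It lay in 11 of 14 processing genes (78.6%), 2 of 13 polymerase genes (15.4%) and 2 of 9 assembly genes (22.2%). Of the 6692 genes tested on the arrays with an entry, 13.1% held it, as did 8.77% of all 27305 genes with an entry. Counted by window, it lay in 9.43% of the windows of tested genes and 7.26% of all 35116 promoter windows. The interaction was called for 5 of the 11 processing genes with the element and for 2 of the 3 without it. The windows of NCL, DDX10 and NHP2 lacked these letters, which says nothing of sites elsewhere. The 4 windows below belong to the processing genes that hold it and whose interaction call passed without each array and under each alternative, all on the plus strand, DDX21 at chr10:68956397-68956696, GAR1 at chr4:109815512-109815811, WDR43 at chr2:28894417-28894716 and UTP18 at chr17:51260296-51260595, with the element in capitals.
DDX21: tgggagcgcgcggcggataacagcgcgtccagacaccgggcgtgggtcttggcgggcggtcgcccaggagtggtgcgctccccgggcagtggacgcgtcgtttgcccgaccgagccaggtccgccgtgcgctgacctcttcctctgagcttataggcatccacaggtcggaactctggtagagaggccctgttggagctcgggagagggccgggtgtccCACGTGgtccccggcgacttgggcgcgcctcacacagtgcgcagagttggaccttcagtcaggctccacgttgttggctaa
GAR1: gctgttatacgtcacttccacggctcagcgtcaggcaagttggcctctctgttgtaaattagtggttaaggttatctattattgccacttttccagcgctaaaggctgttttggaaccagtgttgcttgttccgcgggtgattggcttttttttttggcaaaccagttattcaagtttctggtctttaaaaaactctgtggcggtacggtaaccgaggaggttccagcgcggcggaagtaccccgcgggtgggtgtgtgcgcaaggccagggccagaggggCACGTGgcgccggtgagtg
WDR43: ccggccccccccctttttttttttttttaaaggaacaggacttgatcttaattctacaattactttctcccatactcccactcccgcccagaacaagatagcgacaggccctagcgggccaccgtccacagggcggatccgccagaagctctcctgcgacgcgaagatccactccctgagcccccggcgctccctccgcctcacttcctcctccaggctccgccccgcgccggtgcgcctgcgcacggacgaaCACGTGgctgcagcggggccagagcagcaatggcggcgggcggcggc
UTP18: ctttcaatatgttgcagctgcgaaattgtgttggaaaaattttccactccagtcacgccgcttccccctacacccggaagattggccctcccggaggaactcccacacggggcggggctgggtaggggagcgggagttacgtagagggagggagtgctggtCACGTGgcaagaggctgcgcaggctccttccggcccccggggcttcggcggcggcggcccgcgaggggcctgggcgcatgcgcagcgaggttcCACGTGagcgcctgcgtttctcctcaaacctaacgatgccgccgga
UTP18 holds the element 2 times and the other windows once. DDX21 and GAR1 each have a second window in the table, from another start, without it.

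Among polymerase genes, POLR1B, the second largest subunit of RNA polymerase I, was higher at 2.5 and 5 cGy in GM15510. Its probe set 220113_x_at, of a type that can bind related transcripts, read 149, 114 and 134 at 5 cGy and 113, 104 and 100 at 2.5 cGy in GM15510, beside 76.5, 66.2 and 75.05 at 1 cGy. At 7.5 cGy it read 107, 103 and 90.4 and at 10 cGy 68.2, 69.2 and 82.9. In GM15510 only the arrays at 10 cGy overlapped with those at 1 cGy. POLR1B rose by 0.83 at 5 cGy (SE 0.149, adjusted p = 0.000703) and by 0.52 at 2.5 cGy (adjusted p = 0.0228). In GM15036 its differences were 0.53 at 2.5 cGy (adjusted p = 0.109) and 0.41 at 5 cGy (adjusted p = 0.4). The GM15036 arrays at 2.5, 5 and 10 cGy also lay above all those at 1 cGy, though no dose was called. The call at 2.5 cGy ended without GM15510 1 cGy replicate 2 (0.1) or 2.5 cGy replicate 1 (0.0684), with median centring (0.30, adjusted p = 0.193), with brightness as a covariate (0.392) and without the 5 dimmest arrays (0.109). Its interaction (adjusted p = 0.0335) ended without any 1 of 9 arrays, with adjusted p up to 0.0831, and under the same 3 alternatives (0.11, 0.0905 and 0.186).

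POLR1D, a subunit shared by RNA polymerases I and III, was higher at the upper doses in GM15036. Its probe set 218258_at read 162, 150 and 155 at 10 cGy and 145, 172 and 180 at 7.5 cGy in GM15036, against 121, 107 and 110 at 1 cGy. In GM15510 it read 110, 102 and 86 at 10 cGy, against 88.5, 148 and 108 at 1 cGy, which overlapped. The slope in GM15036 was 0.08 (SE 0.015, adjusted p = 0.000247), with differences of 0.45 at 10 cGy (adjusted p = 0.0464) and 0.54 at 7.5 cGy (adjusted p = 0.0425), and in GM15510 the slope was −0.0021 (adjusted p = 0.977). The 10 cGy call ended without any 1 of 15 arrays (adjusted p up to 0.147) and the 7.5 cGy call without any 1 of 6 (up to 0.183). With median centring they were 0.22 (0.385) and 0.45 (0.116), with brightness as a covariate 0.27 (0.638) and 0.42 (0.334), with the ACTB ratio 0.35 (0.188) and 0.41 (0.272), and neither passed with no filter. Without the 5 dimmest arrays the 10 cGy call ended too (0.247). The interaction (adjusted p = 0.0248) ended without GM15036 7.5 cGy replicate c (0.0554) or GM15510 7.5 cGy replicate 3 (0.0569), with median centring (0.206), with brightness (0.391) and without the 5 dimmest arrays (0.0601). Brightness as a covariate gave the slope an adjusted p of 0.14.

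Of the 6 tested factors of polymerase I initiation, TAF1D and RRN3 had called doses, all lower than 1 cGy, and TAF1A, TAF1B, TAF1C and UBTF had none. TAF1D, of the selectivity factor, read 139, 160 and 127 (218750_at) at 10 cGy in GM15510, against 203, 211 and 209 at 1 cGy. In GM15036 TAF1D read 108, 133 and 121 at 10 cGy and 139, 104 and 92.9 at 2.5 cGy, against 173, 169 and 205 at 1 cGy. At 5 cGy it read 214, 211 and 250 in GM15510 and 189, 187 and 184 in GM15036, above all of the 10 cGy arrays of each line. It fell at 10 cGy by 0.54 in GM15510 (SE 0.119, adjusted p = 0.00361) and by 0.58 in GM15036 (adjusted p = 0.001), and at 2.5 cGy by 0.70 in GM15036 (adjusted p = 0.00268), while at 2.5 cGy in GM15510 it had −0.25 (adjusted p = 0.205). The interaction had adjusted p = 0.0183, or 0.171 with the ACTB ratio as a covariate. These 3 dose calls passed without each array, but with the ACTB ratio as a covariate the adjusted p was 0.151 at 10 cGy in GM15510 and 0.0566 at 2.5 cGy in GM15036, and with brightness as a covariate 0.186 at 10 cGy in GM15036. Its slope in GM15036, −0.03 (adjusted p = 0.0476), ended without any 1 of 18 arrays (up to 0.178) and under 7 of the alternatives (up to 0.67).

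RRN3, the factor that makes RNA polymerase I ready to initiate, was called at 10 cGy in GM15036 but not in the interaction. It read 70, 69.8 and 45.6 (222204_s_at) at 10 cGy in GM15510, against 76.2, 58.4 and 60.3 at 1 cGy, and 52.2, 70.3 and 66.8 at 10 cGy in GM15036, against 108, 102 and 93.6 at 1 cGy. The GM15036 groups lay apart and those of GM15510 overlapped. RRN3 fell by 0.66 in GM15036 (SE 0.191, adjusted p = 0.0193) and had −0.08 in GM15510 (adjusted p = 0.923), and the interaction had adjusted p = 0.125. The GM15036 difference was −0.25 with brightness as a covariate (adjusted p = 0.738), −0.57 without the 5 dimmest arrays (0.249) and −0.58 with the ACTB ratio (0.0726). The GM15036 slope was −0.08 (adjusted p = 0.00314), or −0.04 with brightness as a covariate (0.57) and −0.07 without the 5 dimmest arrays (0.0891). The 10 cGy call ended without GM15036 1 cGy replicate a (0.0707) or b (0.0602) or 10 cGy replicate a (0.111).

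TAF1C, also of the selectivity factor, had a called interaction (adjusted p = 0.0208) and no called dose. It read 61.8, 61.1 and 68 (203938_s_at) at 10 cGy in GM15510, against 69.3, 79.8 and 64 at 1 cGy, which overlapped. In GM15036 TAF1C read 115, 126 and 130 at 10 cGy and 72.8, 72 and 73.3 at 5 cGy, beside 98.1, 97.6 and 83.4 at 1 cGy, with all 10 cGy arrays above and all 5 cGy arrays below those at 1 cGy. UBTF was dim, at 1.18 to 25.6 over all arrays (202692_s_at), and its lowest adjusted p over the 12 comparisons was 0.408. POLR3G, a subunit of RNA polymerase III, fell by 0.98 at 2.5 cGy in GM15510 (adjusted p = 0.0297) with 27.3, 7.65 and 22.9, against 35.2, 33.3 and 46.8 at 1 cGy, and its second probe set had −0.18 (adjusted p = 0.838). That call ended without GM15510 1 cGy replicate 1 (0.0648) or 3 (0.139) or 2.5 cGy replicate 2 (0.246), with brightness as a covariate (0.55), without the 5 dimmest arrays (−0.43, adjusted p = 0.505) and with the line fitted alone (0.061). It was the 1 called dose among the 5 tested subunits proper to polymerase III, POLR3C, POLR3E, POLR3F, POLR3G and POLR3K.

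**Figure D5:**
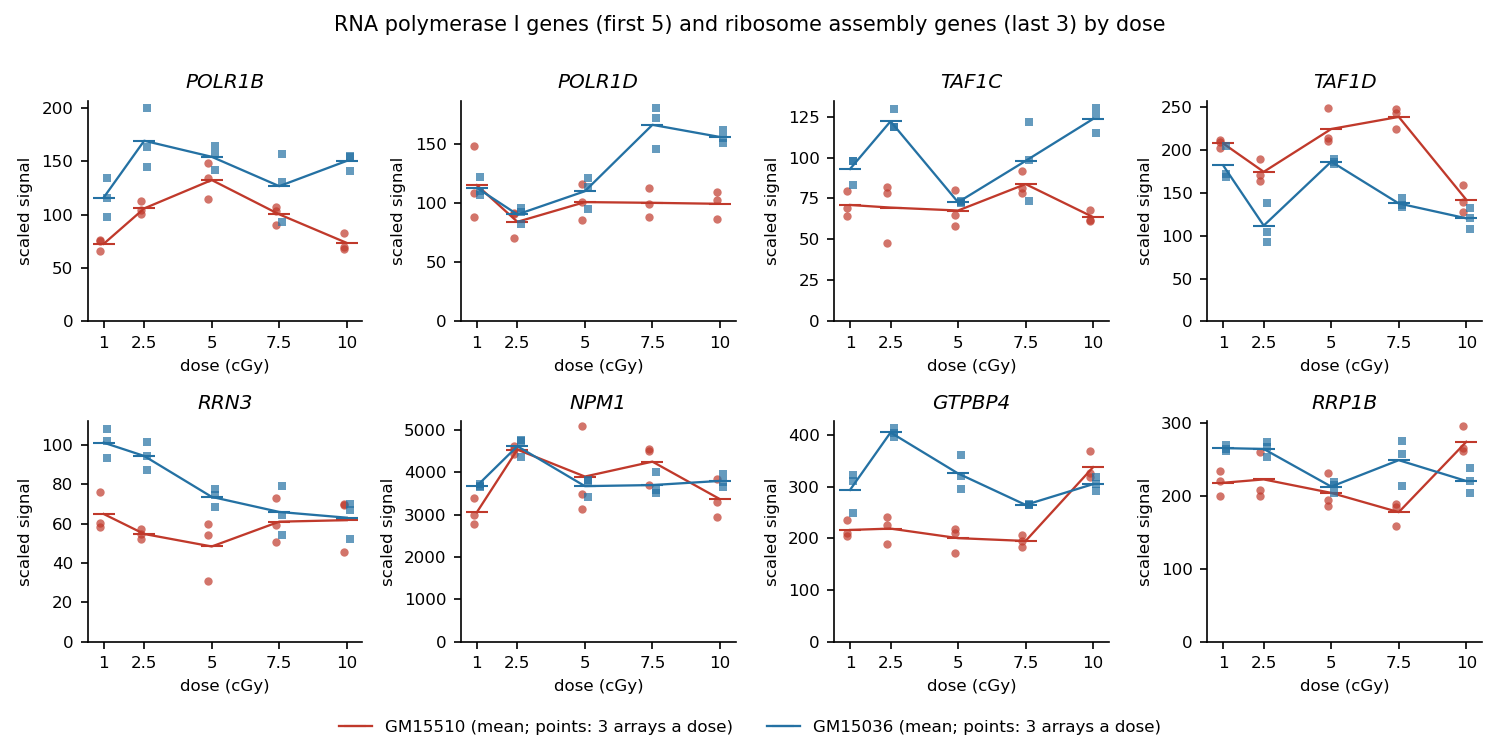
Scaled signal by dose (cGy) of 5 RNA polymerase I genes (POLR1B, POLR1D, TAF1C, TAF1D and RRN3) and 3 ribosome assembly genes (NPM1, GTPBP4 and RRP1B) in GM15510 (red circles) and GM15036 (blue squares), with 3 arrays a group and lines through the group means. POLR1B of GM15510 peaks at 5 cGy, POLR1D of GM15036 is highest at 7.5 and 10 cGy, and GTPBP4 of GM15510 is highest at 10 cGy.

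At single doses NPM1 and GTPBP4 were the called genes of ribosome assembly. NPM1 encodes nucleophosmin, the chaperone that makes up much of the outer layer of the nucleolus. It read 4618, 4434 and 4562 at 2.5 cGy (200063_s_at) in GM15510, against 2990, 3404 and 2779 at 1 cGy, which lay apart, and 4361, 4736 and 4762 at 2.5 cGy in GM15036, against 3676, 3714 and 3649, which lay apart too. NPM1 rose in GM15510 by 0.57 at 2.5 cGy (SE 0.122, adjusted p = 0.00213) and by 0.47 at 7.5 cGy (adjusted p = 0.0338), and had 0.33 at 2.5 cGy in GM15036 (adjusted p = 0.312). At 2.5 cGy in GM15510 the other probe sets had 0.37 (221923_s_at, adjusted p = 0.0172) and 0.23 (221691_x_at, adjusted p = 0.294), and at 7.5 cGy 0.15 and 0.10 (adjusted p = 0.603 and 0.866). The 2.5 cGy difference was 0.24 with median centring (adjusted p = 0.136), 0.18 with quantile normalization (0.159) and 0.15 with brightness as a covariate (0.759). The 7.5 cGy call ended without GM15510 1 cGy replicate 1 (0.142) or 3 (0.189) or 7.5 cGy replicate 1 (0.176) or 3 (0.15), with quantile normalization (0.22, adjusted p = 0.203), with no filter (0.0777) and with the line fitted alone (0.144).

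GTPBP4, a GTPase of the large subunit precursor, had probe sets that disagreed. Probe set 218238_at read 368, 326 and 319 at 10 cGy in GM15510, against 210, 204 and 235 at 1 cGy, a rise of 0.63 (SE 0.109, adjusted p = 0.000226). The same comparison gave −0.02 with 218239_s_at (adjusted p = 0.971) and with 217631_at (adjusted p = 0.994), so the direction rests on the choice of probe set. At 2.5 cGy in GM15510, 218239_s_at had −0.63 (adjusted p = 0.00113). In GM15036 GTPBP4 (218238_at) read 396, 415 and 404 at 2.5 cGy, against 322, 311 and 248 at 1 cGy, a rise of 0.47 (adjusted p = 0.0392). That call ended without GM15036 1 cGy replicate b (0.0755) or c (0.232) or any 1 of the 2.5 cGy replicates a (0.0984), b (0.154) and c (0.114), with median centring (0.154), no filter (0.0573), the ACTB ratio as a covariate (0.0641) or 218239_s_at (0.38, adjusted p = 0.214). The interaction was called with 218238_at (adjusted p = 9.08e-05) and with 218239_s_at (adjusted p = 4.09e-05), and had 0.0916 with 218238_at and brightness as a covariate. The GM15510 slope, 0.05 (adjusted p = 0.00268), had 0.0544 with that covariate and 0.02 (0.312) with 218239_s_at.

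RRP1B, a large subunit processing protein, had a called interaction (adjusted p = 0.00328) with no called dose. It read 265, 261 and 295 (212846_at) at 10 cGy in GM15510, against 234, 199 and 220 at 1 cGy, and 238, 220 and 203 at 10 cGy in GM15036, against 265, 262 and 270 at 1 cGy, with no overlap in either line and opposite directions. Its second probe set 212844_at had an interaction at adjusted p = 0.894. NPM3, a relative of nucleophosmin, rose with dose in GM15036 (slope 0.06, adjusted p = 0.0168) and GNL2, a nucleolar GTPase, fell (slope −0.06, adjusted p = 0.0217). The NPM3 slope ended without GM15036 1 cGy replicate a (0.0678) or b (0.0555) or 10 cGy replicate b (0.0549) or c (0.0641), and that of GNL2 without 10 cGy replicate b (0.23), where GNL2 read 216, against 374 and 429 in replicates a and c. The GNL2 slope was −0.0001 with brightness as a covariate (adjusted p = 0.998), −0.02 without the 5 dimmest arrays (0.544) and −0.05 with the ACTB ratio (0.0515), and that of NPM3 had adjusted p of 0.0923 with brightness and 0.0579 with median centring. PES1, NOP16 and BRIX1 were called in no comparison, and RRS1, WDR12 and NIP7 in the difference of the lines alone.

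Averaged over all doses, the lines differed in 21 of the 41 genes, 9 higher and 12 lower in GM15510 than in GM15036, where 20.2% and 28.5% of all tested genes were. That share lies near the background. Lower in GM15510 were MYBBP1A (−0.72, SE 0.102, adjusted p = 3.64e-07), POLR1B (−0.56, adjusted p = 1.4e-08), TAF1C (−0.48), NOP14 (−0.47), GTPBP4 (−0.46), RRN3 (−0.42), GAR1 (−0.38), WDR43 (−0.35), POLR1D (−0.31), RRS1 (−0.31), NCL (−0.31) and RRP1B (−0.15). Higher were UTP18 (0.55, SE 0.053, adjusted p = 1.47e-10), DDX10 (0.49, adjusted p = 5.66e-09), TAF1B (0.43), TAF1D (0.42), NIP7 (0.33), POLR3K (0.32), WDR12 (0.23), FBL (0.23) and DDX21 (0.20). The calls of TAF1B (adjusted p = 0.0392) and POLR3K (0.0351) ended without any 1 of 14 and 12 arrays, with adjusted p up to 0.0884 and 0.0755, and the other 19 passed without each array. With the ACTB ratio as a covariate POLR1D (−0.21, adjusted p = 0.0804), RRP1B (0.0525), NIP7 (0.0694), POLR3K (0.214) and TAF1B (0.125) did not pass, nor did RRP1B with median centring (−0.07, 0.293) or POLR3K with brightness (0.0593). UTP18 had −0.19 with its second probe set (adjusted p = 0.355). Median centring gave 13 higher and 11 lower, and quantile normalization 11 higher and 12 lower. All 13329 probe sets moved likewise, from 2733 higher and 3559 lower to 3406 and 2743 with median centring and 3009 and 3015 with quantile normalization.

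Other genes of the pathway, from lists of 29 further polymerase genes, 78 further ribosome biogenesis factors, 14 exosome genes and 11 regulators, gave shares of interaction calls nearer to the background of 20.1%. The call fell on 5 of 21 tested polymerase genes, 13 of 60 biogenesis factors, 2 of 10 exosome genes and 1 of 7 regulators. GTF3A, the factor by which RNA polymerase III finds the gene of the smallest rRNA, read 393, 378 and 370 at 10 cGy in GM15510, against 405, 440 and 438 at 1 cGy. In GM15036 GTF3A read 408, 435 and 418 at 10 cGy, against 331, 307 and 283 at 1 cGy. Its slopes were −0.03 in GM15510 (adjusted p = 0.0204) and 0.06 in GM15036 (adjusted p = 9.21e-06), with an interaction at adjusted p = 1.53e-07. Neither profile was steady. In GM15510 GTF3A read 484, 476 and 498 at 2.5 cGy and 565, 523 and 452 at 5 cGy, all above 1 cGy. In GM15036 it read 249, 266 and 244 at 5 cGy, all below 1 cGy. The GM15510 slope ended without 1 cGy replicate 2 (0.0691) or 3 (0.0583) or 10 cGy replicate 2 (0.0597) or 3 (0.0754), with median centring (0.345), with brightness as a covariate (0.299) and without the 5 dimmest arrays (0.0542). TTF1, which ends transcription by RNA polymerase I, was also lower at 10 than at 1 cGy in GM15510 and higher in GM15036. It read 94.1, 79.6 and 82.1 at 10 cGy in GM15510, against 121, 145 and 142 at 1 cGy. In GM15036 TTF1 read 186, 199 and 158 at 10 cGy, against 114, 116 and 104 at 1 cGy. At 5 cGy in GM15036 it read 73.7, 63 and 87.2, all below 1 cGy. At 10 cGy TTF1 fell by 0.65 in GM15510 (adjusted p = 0.00238) and rose by 0.68 in GM15036 (adjusted p = 0.000907). The GM15036 difference at 10 cGy was 0.54 with brightness as a covariate (adjusted p = 0.155) and 0.49 without the 5 dimmest arrays (0.157).

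RPF1, an assembly factor of the large subunit, read 320, 336 and 315 at 10 cGy in GM15510, against 233, 256 and 267 at 1 cGy, and 173, 158 and 162 at 10 cGy in GM15036, against 261, 251 and 263 at 1 cGy. Its groups lay apart in both lines and in opposite directions, and its interaction had adjusted p = 6e-06. HEATR1, a processome protein needed for rRNA transcription, fell by 0.71 at 10 cGy in GM15036 (SE 0.126, adjusted p = 0.000211), or by 0.56 with brightness as a covariate (adjusted p = 0.0957). UTP6, another processome protein, fell by 0.56 at 2.5 cGy in GM15510 (adjusted p = 0.00118). TSR1, of the same list, rose there by 0.80 (adjusted p = 0.00477), or by 0.57 with brightness as a covariate (0.435). RIOK2, also of that list, fell by 0.91 at 5 cGy in GM15510 (adjusted p = 0.0032), or by 0.58 with brightness as a covariate (0.155). In GM15036 RIOK2 fell by 0.69 at 10 cGy (adjusted p = 0.0133), or by 0.13 with that covariate (0.877). MYC, the transcription factor that drives ribosome production, averaged 140 ± 23.5 at 10 cGy and 120 ± 11.6 at 1 cGy in GM15510, and 210 ± 11.9 at 10 cGy and 214 ± 19.9 at 1 cGy in GM15036 (SD, n = 3 each). Over all doses it was 0.76 lower in GM15510 than in GM15036 (difference −0.76, SE 0.052, adjusted p = 5.46e-14), and 6 of the 7 tested regulators were lower in that line and 0 higher, where 28.5% and 20.2% of all tested genes were. No regulator but BAZ2A, a subunit of a complex that silences rRNA genes, was called at a dose. It rose by 0.79 at 2.5 cGy in GM15510 (adjusted p = 0.0358), a call that ended without 1 cGy replicate 2 (0.105) or 3 (0.17) or 2.5 cGy replicate 1 (0.0728) or 3 (0.165), and under 6 of the alternatives (up to 0.57).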

How the data were processed

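Signals are MAS5 intensities that the authors deposited for 22283 probe sets on 30 Affymetrix arrays, with MAS5 named per the submitters' processing notes. Its version and settings are not given in the sources used here. Total RNA, per the labels, was amplified and biotin-labelled by in vitro transcription from the 3-prime end. Arrays differed in brightness by 7.91 times, so each was scaled to the mean trimmed mean (2 to 98 percent of its values), 50.9, before log2 with a pseudocount of 4. The 13329 probe sets in the upper 60 percent of mean log2 signal were tested, control sets left out.

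Symbols of the platform annotation, which can be old, were updated through gene IDs (19059 probe sets matched). Of all probe sets 19071 had 1 symbol, 1043 several and 2169 none, and only those with 1 symbol were named. Counts use 1 probe set a gene, that of the highest mean, with the _x_at and _s_at types only for lack of others.

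limma 3.58.1 (R 4.3.3) fitted the 10 groups by lmFit, then eBayes with an intensity trend (20 residual and 12.3 prior degrees of freedom), two-sided, with Benjamini-Hochberg adjustment over all tested probe sets and a threshold of 0.05. The script was tested on simulated data. Slopes are contrasts of the 5 group means of a line on dose. Per comparison and role, the up to 4 called genes of largest change were named, with 14 fixed genes whatever their test (POLR1A, POLR1B, UBTF, RRN3, TAF1D, POLR3D, NCL, FBL, DKC1, NOP56, NPM1, GNL3, BOP1 and PES1). Of the other pathway lists only some of the called genes were named, so a gene left out may have been called. Further genes were named after their values were seen. The members and lists were chosen with earlier results of these data known. The number of arrays limits the precision. Replicates of a group correlated at 0.901 to 0.972, and 0 pairs of arrays were identical. Alternatives were other scalings and pseudocounts, no filter, brightness as a covariate, a replicate block, each line fitted alone and each array left out. Another took the probe set of highest mean of any type, which left many genes with the same probe set. Leaving out the 5 dimmest arrays and the ACTB ratio as a covariate were chosen after seeing the data.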

Additional observations from a re-analysis of the deposited data

Results flagged for a closer look

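The dose profile differed between GM15510 and GM15036, by the F test of the interaction (limma, adjusted over all tested probe sets), for 14 of the 41 genes, where 20.1% of all tested genes were called. Among the rRNA processing genes the adjusted p was 4.07e-06 for DDX21, 6.23e-05 for NCL, 0.00097 for NOLC1, 0.000971 for DDX10, 0.00167 for GAR1, 0.00181 for UTP18, 0.00704 for WDR43 and 0.00775 for NOP14. Among the assembly genes it was 9.08e-05 for GTPBP4 and 0.00328 for RRP1B, and among the polymerase genes 0.0183 for TAF1D, 0.0208 for TAF1C, 0.0248 for POLR1D and 0.0335 for POLR1B. Array brightness differed between doses in a different way in each line, and with it as a covariate 9 genes were called. The share of all tested genes with this covariate was not counted. Groups of 3 arrays are too small for an outlier test.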

How the results depend on the processing

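Of 77 calls of a gene in a comparison, 50 passed without each array in turn, and 33 of these also passed under every alternative. The alternatives did not try every other probe set of a gene. Among the 33 were NOLC1 at 10 cGy in GM15036, the RRP1B interaction and the UTP18 difference of the lines. Other probe sets of these genes, given above, did not pass in those comparisons. The 77 include 21 calls of the difference of the lines over all doses, and 16 of these were among the 33. Of 14 called interactions, 7 were among the 33. Dose calls among the 33 were 2 of 6 at 10 cGy in GM15036, and 3 of 3 at 5 cGy and 2 of 6 at 10 cGy in GM15510. No call at 2.5 or 7.5 cGy was among them. Slopes were 2 of 10 in GM15036 and 1 of 4 in GM15510. Brightness as a covariate ended 31 calls, the ACTB ratio as a covariate 19, leaving out the 5 dimmest arrays 14, median centring 13, no filter 8, quantile normalization 4, the choice of any kind of probe set 3, all of GTPBP4, each line fitted alone 5 of 42, and pseudocounts of 1 and 16 ended 0. With any kind of probe set, GTPBP4 at 10 cGy in GM15510 turned to −0.0246 (adjusted p = 0.971). The replicate block ended 6 calls, and left 1 call for 2 at 2.5 cGy in GM15036, 1 for 2 at 7.5 cGy in GM15036 and 0 for 1 at 7.5 cGy in GM15510. Same-numbered arrays did not deviate together (correlations from −0.06 to 0.10), so the numbers were not taken to pair them. Median centring gave 11 calls for 6 at 10 cGy and 1 for 2 at 2.5 cGy in GM15036, and 14 for 8 at 2.5 cGy and 6 for 3 at 5 cGy in GM15510. Brightness as a covariate gave 2 calls for 6 at 10 cGy, 0 for 2 at 7.5 cGy and 4 for 10 slopes in GM15036, 0 for 8 at 2.5 cGy and 1 for 4 slopes in GM15510, and 9 for 14 interactions. The ACTB ratio as a covariate gave 0 for 2 at 2.5 cGy and 0 for 2 at 7.5 cGy in GM15036, and 3 for 6 at 10 cGy in GM15510. No filter gave 1 for 2 at 2.5 cGy and 0 for 2 at 7.5 cGy in GM15036, and 0 for 1 at 7.5 cGy in GM15510, where quantile normalization and the line fitted alone gave 0 too. Any kind of probe set gave 1 for 2 at 2.5 cGy in GM15036, and leaving out the 5 dimmest arrays 5 for 8 at 2.5 cGy in GM15510. Without each array in turn the counts ran from 1 to 2 at 2.5 cGy, 0 to 3 at 7.5 cGy and 5 to 10 for slopes in GM15036 (5 without 10 cGy replicate b), and from 4 to 8 at 2.5 cGy (4 without 2.5 cGy replicate 1) and 0 to 1 at 7.5 cGy in GM15510. Apart from median centring and quantile normalization, calls over the whole array were not counted under these alternatives, so the changed counts have no background. The cause of these shifts was not tested. Dim genes such as UBTF and PES1 lie near the floor of the arrays, which limits what could be detected.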
